A study of Mus musculus with 18 samples.

Results

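The genes of the translation initiation factors were followed across 3 populations of blood-forming cells from mice given tamoxifen or corn oil. The members were the rows of the deposited gene table whose symbol begins with Eif and a digit from 1 to 6. The pattern matched 57 symbols. The 4 Eif2ak kinases and Eif2s1 were left out by the rule, so 52 of the table's 14419 genes remained. The cells were sorted from the marrow of adult males of the C57BL/6 strain. The populations are read, by the field's usual meaning of the names, as the long-term haematopoietic stem cells (LT), the short-term haematopoietic stem cells (ST) and the multipotent progenitors (MPP). Tamoxifen is a selective estrogen receptor modulator, and the corn oil groups received the vehicle. The 6 groups were MPP oil and MPP tamoxifen after 1 week of treatment, and LT oil, LT tamoxifen, ST oil and ST tamoxifen after 2 weeks, with 3 libraries each. The labels name no transgene or mutation in these mice. The MPP groups thus differ from the LT and ST groups in duration as well as in population. The sources used here do not give the sort gates, the dose or the number of mice behind a library. The series' design text calls the 3 libraries of a group biological replicates. Without a statement that each came from its own mouse, p-values measure the spread between these libraries, which may be partly technical.

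Initiation factors bring the small ribosomal subunit, the initiator tRNA and the messenger RNA together and then let the large subunit join. The eIF2 complex, loaded with GTP by its exchange factor eIF2B, delivers the initiator tRNA, and eIF1, eIF1A and eIF3 act on the small subunit. At the cap of the messenger RNA, eIF4E, the scaffold eIF4G and the helicase eIF4A form eIF4F, which the 4E-binding proteins block by occupying eIF4E. Blood-forming stem cells are known for a low rate of protein synthesis compared with their progeny. The symbol rule also takes in proteins that are not initiation factors: Eif2c1 to Eif2c4 are older symbols of Ago1 to Ago4, the Argonaute proteins of microRNA silencing, and Eif4ebp1 to Eif4ebp3 and Eif4enif1 code for proteins that bind eIF4E. The members were ordered in 10 classes by role, and the Argonautes are given apart. In several cases a close copy could have shared reads with a member (Eif1a with Eif1ax, Eif2s3x with Eif2s3y, the copies of Eif3j, and processed copies of Eif5a). The sources used here do not say how such reads were split.

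The promoters of several members hold the hexamer CACGTG, the E-box that MYC and MAX bind, and the sequences of 4 of them are shown because the genes carry results below. Promoter windows of 250 bases before an annotated start came from RefSeq (GRCm38.p6), and 37 of the 52 members had an entry. Capitals mark the hexamer, which reads the same on both strands.
Eif4g1, the eIF4G scaffold, chr16:20672651-20672700, plus strand: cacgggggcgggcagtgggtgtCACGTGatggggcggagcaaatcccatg
Eif5a, the hypusine-carrying factor, chr11:69921443-69921472, minus strand: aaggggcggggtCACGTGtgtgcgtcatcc
Eif4e, the cap-binding protein, chr3:138527192-138527221, plus strand: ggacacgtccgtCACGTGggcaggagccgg
Eif4a1, the helicase, chr11:69672585-69672634, minus strand: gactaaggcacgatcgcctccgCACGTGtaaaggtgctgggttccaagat
The hexamer lay 48 bases before the start of Eif4g1 and 183 bases before that of Eif4a1. For Eif4e it lay 58 bases before 1 of 2 annotated starts, with another copy 222 bases before the same start. For Eif5a the copy shown lay 68 and 179 bases before 2 of 6 annotated starts, and another copy lay 172 bases before a further one. CACGTG occurred in 9 of the 37 members (24.3%), in 9.82% of the 9344 table genes with an entry, and in 6.02% of all 32851 windows of that length. Among the members, it was found in 2 of the 13 that rose in ST cells under tamoxifen (Eif4g1 and Eif5a) and in 7 of the 24 that were not called there. The palindromic estrogen response element (GGTCA, any 3 bases, TGACC) occurred in 0 of the 37 members, in 0 of the 9344 table genes and in 0.0639% of all windows. The motifs do not overlap each other, and a match describes letters in a window, not binding.

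Reads in listed genes ran from 2728800 in library A of ST oil to 5279821 in library 1 of MPP tamoxifen. Values are normalised CPM, that is, reads with a small offset, multiplied by a constant for each library. The constants did not bring the libraries to a common total. A read was worth 0.329 in ST oil library A, with 2728800 reads, and 0.297 in LT tamoxifen library A, with 3857229. Summed levels below are therefore not shares of a common total. Some marker genes followed the labels of the populations and others did not. Flt3, a receptor of progenitors, stood at 645.9 to 703.0 in MPP oil against 50.5 to 119.1 in LT oil, Slamf1, a stem cell marker, at 18.2 to 30.0 in LT oil against 0.41 to 1.29 in MPP oil, and Cd48, absent from the surface of LT cells, at 7.13 to 13.7 in LT oil against 81.9 to 108.5 in ST oil. Hlf, of the same marker list, did not run in the order LT, ST, MPP. It stood at 1048 to 1229 in LT oil, 390.5 to 622.8 in ST oil and 813.3 to 946.0 in MPP oil. Of the 10 stem and progenitor markers, 6 were called higher in MPP oil than in ST oil (Hlf, Kit, Mecom and Ly6a among them) and 1 lower. LT tamoxifen library A stood apart, with 25.4% of its reads in mitochondrial ribosomal RNA against 17.7% to 18.7% in the other LT libraries. The ST libraries stood apart in how values moved with transcript length: per doubling of length, at a given GC content and relative to the mean of all libraries, values fell by 0.14 to 0.21 on the log2 scale in ST oil and by 0.08 to 0.12 in ST tamoxifen, ranges that do not overlap, while they rose by 0.03 to 0.13 in the other 12 libraries. In sorted bulk samples, fewer cells of a type and less RNA per cell cannot be told apart.

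Every member was present in the 18 libraries with at least 1 read. Over all libraries, 2 members averaged below 10 normalised CPM, Eif4ebp3 (a 4E-binding protein) and Eif5a2 (the minor eIF5A gene). On the scale of normalised CPM per kb of the longest transcript, Eif5a was the highest member at 349.6, followed by the helicase gene Eif4a2 at 235.2, the scaffold-like Eif4g2 at 158.0, Eif4b at 156.0 and Eif4a1 at 154.3. The lowest was Eif5a2 at 1.82. Among the eIF3 subunits the per-kb level ran from 8.98 for Eif3j to 138.4 for Eif3h.

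In ST cells, members of 8 of the 10 role classes rose with tamoxifen: all 3 eIF4G genes, 4 of 13 eIF3 subunits, 2 of 5 in the eIF1 and eIF1A class, 2 of 5 in the eIF5 to eIF6 class, and 1 each of the eIF2 class, the eIF2B class, the class of eIF4A with its helpers and the class of eIF4E-binding proteins. One member fell, the cap-binding protein gene Eif4e3. The comparison asks how tamoxifen changed the transcriptome of each population. In all, 16 of the 52 members passed (limma, Benjamini-Hochberg adjusted p under 0.05 over 14419 genes), 15 higher and 1 lower, against 9.61% of all genes, or 6.01% higher and 3.60% lower. The members are well-expressed genes: of the 40 with a mean of at least 50 normalised CPM, 14 rose and 1 fell, against 15.9% and 3.67% of the 3925 genes at that level. The median log2 fold change was 0.23 over the members and 0.01 over all genes, and 41 of 52 members lay above 0 against 7283 of 14419 genes. The libraries of both groups did not overlap for 23 members that were higher and 2 that were lower, against 14.8% and 12.2% of all genes. After quantile normalisation 9 rose and 2 fell. Without ST oil library A the count was 9, and without ST tamoxifen library C it was also 9, while the count over all genes dropped to 654 and 669 from 1386. Calls of 7 members (Eif1a, Eif2s3x, Eif3c, Eif3g, Eif4g1, Eif5a and Eif4e3) held under all 18 alternatives, and the other 9 were lost in 2 to 11 of them. The alternative without a filter repeated the main fit, because the filter removed 0 genes, and could not lose a call. Among those, Eif3a was lost in 2 (one of them without ST oil library A), Eif4b in 4 (among them without ST oil library A and without ST tamoxifen library C) and Eif1ad in 5 (among them without ST oil library A and without ST tamoxifen library A or B).

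All 3 scaffold genes passed. Eif4g1 (ENSMUSG00000045983), the main scaffold of eIF4F, stood at 150.3, 171.5 and 180.4 normalised CPM in ST oil libraries A, B and C and at 269.8, 262.7 and 268.5 in ST tamoxifen. Each treated library lay above every oil library, and the treated values were close together, with a log2 fold change of 0.67 ± 0.12 (SE, limma adjusted p = 0.000829). Eif4g2 (ENSMUSG00000005610), a scaffold-like factor that lacks the eIF4E-binding part, stood at 878.3, 823.3 and 991.6 in oil and at 1129, 1298 and 1363 under tamoxifen, also without overlap (0.49 ± 0.12, limma adjusted p = 0.0113). Eif4g3 (ENSMUSG00000028760), the paralog of Eif4g1, stood at 174.0, 165.8 and 156.1 and at 237.1, 220.4 and 221.5, with both sets of libraries narrow (0.45 ± 0.13, limma adjusted p = 0.0222). The call of Eif4g1 held under all 18 alternatives. That of Eif4g2 was lost in 3, without ST oil library B, without ST tamoxifen library C and without trended and robust moderation. That of Eif4g3 was lost in 7, among them 5 of the 6 that left out 1 ST library (all but ST oil library A) and quantile normalisation, where its log2 fold change was 0.26 (limma adjusted p = 0.16). The 3 genes together ran from 1161 to 1328 in ST oil and from 1636 to 1853 under tamoxifen. The treated ST range overlapped those of LT oil, 1628 to 1745, and MPP oil, 1813 to 1936, while ST oil lay below both. The 3 genes are long, at 5.64 to 8.13 kb, and values fell most steeply with length in ST oil. The sums were not corrected for that trend.

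The cap-binding class split. Eif4e3 (ENSMUSG00000030068), a minor cap-binding protein, was the member that fell, from 142.4, 128.4 and 118.6 in ST oil to 81.7, 91.0 and 81.5 in ST tamoxifen, with no overlap (-0.61 ± 0.14, limma adjusted p = 0.00592). Eif4e, the main cap-binding protein, had group means of 147.5 ± 5.69 (SD, n = 3) in oil and 201.1 ± 52.8 under tamoxifen, with ST tamoxifen library A inside the oil range, and missed the threshold (0.41 ± 0.14, limma adjusted p = 0.0637). Eif4e2, which binds the cap but not eIF4G, was 62.8 ± 7.29 and 59.5 ± 7.12. Of the proteins that bind eIF4E, Eif4enif1, which carries eIF4E into the nucleus, rose from 100.5 ± 18.7 to 138.6 ± 8.51 (0.48 ± 0.15, limma adjusted p = 0.0473), a call lost in 11 of 18 alternatives. The inhibitor gene Eif4ebp2 was 103.3 ± 13.4 and 131.2 ± 9.27 (0.35 ± 0.12, limma adjusted p = 0.063), and neither it, Eif4ebp1 nor Eif4ebp3 passed. Of the helicase and its helpers, Eif4b (ENSMUSG00000058655), which stimulates eIF4A, rose from 356.3, 446.2 and 534.6 to 623.9, 618.1 and 638.5 (0.51 ± 0.13, limma adjusted p = 0.013). Its oil libraries spread widely and its treated libraries hardly at all. Eif4a1 (0.31 ± 0.12, limma adjusted p = 0.106), Eif4a2, Eif4a3 and Eif4h did not pass.

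Of the 13 eIF3 subunits, 4 rose. Eif3a (ENSMUSG00000024991), the largest subunit, stood at 389.9, 421.0 and 471.8 in ST oil and at 639.9, 753.5 and 711.2 in ST tamoxifen (0.71 ± 0.17, limma adjusted p = 0.0106). Eif3c (ENSMUSG00000030738), a core subunit beside it, stood at 166.1, 191.0 and 230.9 and at 308.0, 323.3 and 329.6 (0.72 ± 0.13, limma adjusted p = 0.00109). For both genes the lowest treated library lay above the highest oil library. Eif3g (ENSMUSG00000070319), an RNA-binding subunit, rose from 78.5, 86.0 and 94.0 to 141.2, 133.3 and 171.7 (0.78 ± 0.14, limma adjusted p = 0.000984), and its groups did not overlap either. Eif3l (ENSMUSG00000033047), a peripheral subunit, rose from 109.1, 138.7 and 157.6 to 176.3, 195.3 and 203.3 (0.51 ± 0.13, limma adjusted p = 0.0125). Its lowest oil library, A, was far from the highest, C, and the call was lost without ST oil library A, without ST tamoxifen library C and after quantile normalisation. The other 9 subunits had log2 fold changes from -0.10 (Eif3k) to 0.41 (Eif3b) and did not pass. Eif3e (-0.00), Eif3h (-0.04) and Eif3k were the subunits at or below 0.

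Among the factors that prepare the small subunit and bring the initiator tRNA, 4 rose. Eif1a (ENSMUSG00000057561), one of the eIF1A genes, stood at 120.3, 119.8 and 124.2 in ST oil and at 183.2, 204.1 and 185.8 in ST tamoxifen (0.65 ± 0.12, limma adjusted p = 0.00184). The 3 oil libraries agreed within a few units, well below the treated ones. Eif1ad (ENSMUSG00000024841), which codes for a protein with an eIF1A-like domain, rose from 43.3, 47.2 and 45.3 to 66.5, 79.3 and 54.1 (0.53 ± 0.15, limma adjusted p = 0.0247), with treated libraries that spread more than the oil ones. Eif2s3x (ENSMUSG00000035150), the X-linked gene of the eIF2 gamma subunit that holds the initiator tRNA, rose from 104.8, 107.9 and 103.9 to 129.8, 181.3 and 173.7 (0.59 ± 0.13, limma adjusted p = 0.00605). Its treated library A was well below B and C but still above every oil library. Its Y-linked partner Eif2s3y had 112.9 ± 14 and 113.1 ± 0.531, a log2 fold change of 0.01 ± 0.13. Eif2b5 (ENSMUSG00000003235), the catalytic subunit of the exchange factor eIF2B, rose from 26.5, 30.3 and 41.5 to 54.9, 45.3 and 53.3 (0.65 ± 0.18, limma adjusted p = 0.0228). Its call was lost in 4 of the 18 alternatives, each of which left out 1 ST library, and the other 4 eIF2B genes had log2 fold changes from 0.03 to 0.22.

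Of the late-acting factors, Eif5a (ENSMUSG00000078812), which carries hypusine and relieves stalled ribosomes, stood at 459.3, 447.8 and 513.5 in ST oil and at 735.8, 709.5 and 794.9 in ST tamoxifen. The treated values exceeded every other library of the series, and the log2 fold change was 0.66 ± 0.12 (limma adjusted p = 0.00105). Eif5b, the GTPase that joins the subunits, had the largest fold change of the members, with 177.5 ± 21.4 in oil, 335.2 ± 50.5 under tamoxifen and 0.91 ± 0.26 (limma adjusted p = 0.0409). That call was lost in 8 of 18 alternatives. Eif5, the GTPase activator of eIF2, Eif5a2 and Eif6, which keeps the subunits apart, did not pass. The 4 Argonautes did not pass. The one with the smallest p was Eif2c3 (Ago3), at 57.6 ± 2.64 in oil and 41.2 ± 1.5 under tamoxifen, with a log2 fold change of -0.47 ± 0.16 (limma adjusted p = 0.0512). Summed over the 52 members, the level ran from 8193 to 9086 normalised CPM in ST oil and from 10262 to 11768 under tamoxifen. A parting of these sums was not confined to ST cells. For LT cells the vehicle sums were 8897 to 9299 and the treated sums 9938 to 11316. For MPPs they were 9223 to 9392 and 9455 to 10601, again without overlap. The sums were not tested.

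**Figure D1:**
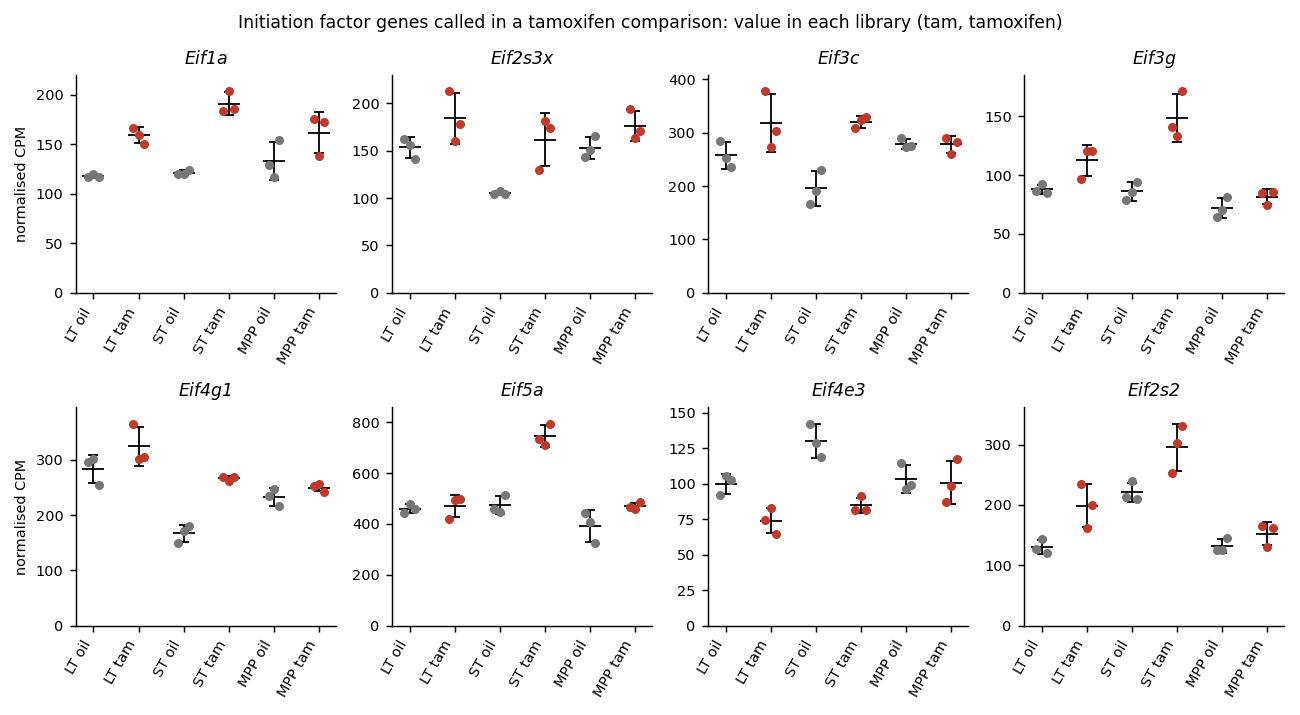
Normalised CPM of 8 genes called in a tamoxifen comparison (y axis, from 0) in each of the 6 groups (x axis), with points for the 3 libraries of a group and a bar and whiskers for the mean and SD. In ST cells the 6 risers Eif1a, Eif2s3x, Eif3c, Eif3g, Eif4g1 and Eif5a had every tamoxifen library above every oil library and Eif4e3 had every tamoxifen library below, while Eif2s2 is shown for its call in LT cells.

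The other genes of the pathway were taken as lists. Of 13 genes for poly(A)-binding and accessory initiation proteins, 5 rose in ST cells and 0 fell, against 6.01% and 3.60% of all genes and 15.9% and 3.67% of the genes at 50 normalised CPM or more. They were the helicase gene Ddx3x from 249.2 ± 13.7 to 404.9 ± 12.7 (0.70 ± 0.12, limma adjusted p = 0.000877), the poly(A)-binding genes Pabpc1 (0.51) and Pabpc4 (0.74), the helicase gene Dhx29 (0.82) and the ribosome recycling gene Abce1 (0.68). Of 12 elongation and termination genes, 3 rose and 0 fell, against the same shares. They were Eef2, which moves the ribosome along, from 874.5 ± 222 to 1344 ± 83.4 (0.65 ± 0.14, limma adjusted p = 0.00331), and the release factor genes Etf1 (0.73) and Gspt1 (0.85). Of 16 genes of mTORC1 and MNK signalling, 3 rose and 1 fell, and 18.8% higher lies near the 15.9% of the higher-level genes. Mtor, the kinase (0.39), Larp1, its target that binds ribosomal protein messages (0.54), and Pdcd4, an inhibitor of eIF4A (0.51), were higher, and Rptor, the mTORC1 adaptor, was lower (-0.56 ± 0.14, limma adjusted p = 0.0096). The risers of that list thus include an inhibitor of initiation. Under the alternatives, the calls of Ddx3x, Pabpc4, Abce1, Etf1, Gspt1 and Larp1 held in 18 of 18, those of Eef2 and Rptor were lost in 1 (quantile normalisation and without ST tamoxifen library C), those of Pabpc1, Dhx29 and Pdcd4 in 6 and that of Mtor in 12. Quantile normalisation brought Ddx3x to 0.46, Pabpc1 to 0.30, Larp1 to 0.36 and Pdcd4 to 0.32. The 7 eIF2alpha kinase and phosphatase genes, the 2 hypusine synthesis genes and the 2 mitochondrial initiation genes had 0 calls in ST cells (limma), with 1, 0 and 0 at an unadjusted p under 0.05, against 25.1% of all genes. In LT and in MPP cells, 0 genes of these 6 lists passed (limma), with at most 5 and 3 genes of a list at an unadjusted p under 0.05, against 13.5% and 5.68% of all genes.

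Markers of other cells moved in part with this comparison. Of 7 measured macrophage and monocyte markers, Vcam1 passed (log2 fold change 1.19, limma adjusted p = 0.0238), and their sum ran from 37.3 to 66.4 normalised CPM in ST oil and from 98.7 to 103.4 under tamoxifen. Vcam1's call was lost in 7 of 18 alternatives, 5 of which left out 1 ST library. Csf1r, at 4.14 to 8.39 in oil and 13.5 to 23.5 under tamoxifen, also parted completely (1.44, limma adjusted p = 0.0516). Cd68, C1qc and C1qa had every tamoxifen library above every oil library as well, but did not pass. Cd68 stood at 6.46 to 16.95 in ST oil and 17.14 to 23.5 under tamoxifen. C1qc stood at 4.14 to 9.05 and 9.96 to 13.3, and C1qa at 0.73 to 1.82 and 2.14 to 3.21. The groups overlapped for C1qb, at 4.47 to 13.7 over these 6 libraries, and for Emr1, at 1.81 to 3.66. None of the 7 was at 0. Of 8 erythroblast markers, Rhag and Klf1 rose (1.82 and 1.33, lost in 11 and 8 of 18 alternatives), and the summed level was 34.6 to 46.0 in oil and 46.9 to 81.8 under tamoxifen. Of 10 stem and progenitor markers, Mecom rose (0.74), and their sum overlapped. The 3 of 6 stroma and endothelium markers in the table had no call, and their sum was 3.46 to 5.14 in oil and 5.57 to 6.80 under tamoxifen, without overlap. The neutrophil (7 of 8 measured), B cell (4 of 7) and T and NK cell (3 of 7) markers had overlapping sums and no call in ST cells. The part of these cells in the changes of the members was not tested. Mitochondrial ribosomal RNA took 18.2% to 21.9% of the reads in oil and 19.3% to 24.3% under tamoxifen.

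In LT cells, 1 of the 52 members passed, against 0.416% of all genes, and 12 (23.1%) had an unadjusted p under 0.05, against 13.5% of all genes. Eif2s2, the beta subunit of eIF2, stood at 127.4, 142.8 and 120.8 in LT oil libraries A, B and C and at 233.9, 162.5 and 200.4 in LT tamoxifen, with every treated library above the oil libraries (0.59 ± 0.14, limma adjusted p = 0.0495). This call was lost in 11 of 17 alternatives, with adjusted p from 0.00506 to 0.285, among them each that left out 1 LT oil library and those without LT tamoxifen library A or C. DESeq2 on the recovered reads called 4 members and edgeR's quasi-likelihood test 1. LT tamoxifen library A was far above the others for Eif3a (1429, 670.7 and 818.0, against 690.8, 683.3 and 611.8 in oil) and for Eif5b (683.0, 238.7 and 287.9, against 218.7, 233.8 and 214.1). It was the library with the high mitochondrial share, and for Eif5b libraries B and C lay closer to, and above, the oil range. Eif4e3 was lower in each treated LT library, at 74.2, 82.6 and 64.8 against 92.0, 105.1 and 102.6, but missed the threshold (-0.44 ± 0.14, limma adjusted p = 0.132). The median log2 fold change of the members was 0.11 in LT cells, against -0.02 over all genes, and 39 of 52 lay above 0, against 6932 of 14419. Markers moved in LT cells as well. Kit, the receptor of stem cell factor, fell from 1032, 1075 and 1152 in oil to 758.8, 782.2 and 681.8 under tamoxifen (-0.55, limma adjusted p = 0.0159), a call lost in 6 of 17 alternatives, and was the only one of the 42 markers called there. The summed level of the 10 stem and progenitor markers was 2788 to 3212 in oil and 1926 to 2269 under tamoxifen. Erythroblast markers summed to 127.5 to 146.5 and 155.4 to 261.7, B cell markers to 14.8 to 28.3 and 9.52 to 13.98, and T and NK cell markers to 19.8 to 41.6 and 4.91 to 19.0. These 4 sums did not overlap, while those of the neutrophil, macrophage and stromal markers did. Their part in the members' changes was not tested.

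In MPPs, 0 of the 52 members passed, against 0.0555% of all genes. At an unadjusted p under 0.05 there were 4 (7.69%), against 5.68% of all genes, and edgeR's quasi-likelihood test and DESeq2 on the recovered reads each called 0. The median was 0.13, against 0.00 over all genes, and 38 of 52 lay above 0, against 7208 of 14419. Eif5a was 391.8 ± 61.8 in MPP oil and 470.1 ± 13.6 in MPP tamoxifen (0.27 ± 0.12, limma adjusted p = 0.842). Eif4g1 was 233.0 ± 15.9 and 250.1 ± 7 (0.10 ± 0.12). No marker was called in MPPs by limma, but the summed stem and progenitor markers were 3160 to 3456 in oil and 2704 to 3116 under tamoxifen, and the macrophage and monocyte markers 99.4 to 113.9 and 121.1 to 138.5, both without overlap. The erythroblast markers summed to 12.4 to 34.7 in oil and 18.8 to 329.4 under tamoxifen. The highest sum was that of MPP tamoxifen library 2, with Hbb-b1 at 153.2. The part of these markers was not tested.

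**Figure D2:**
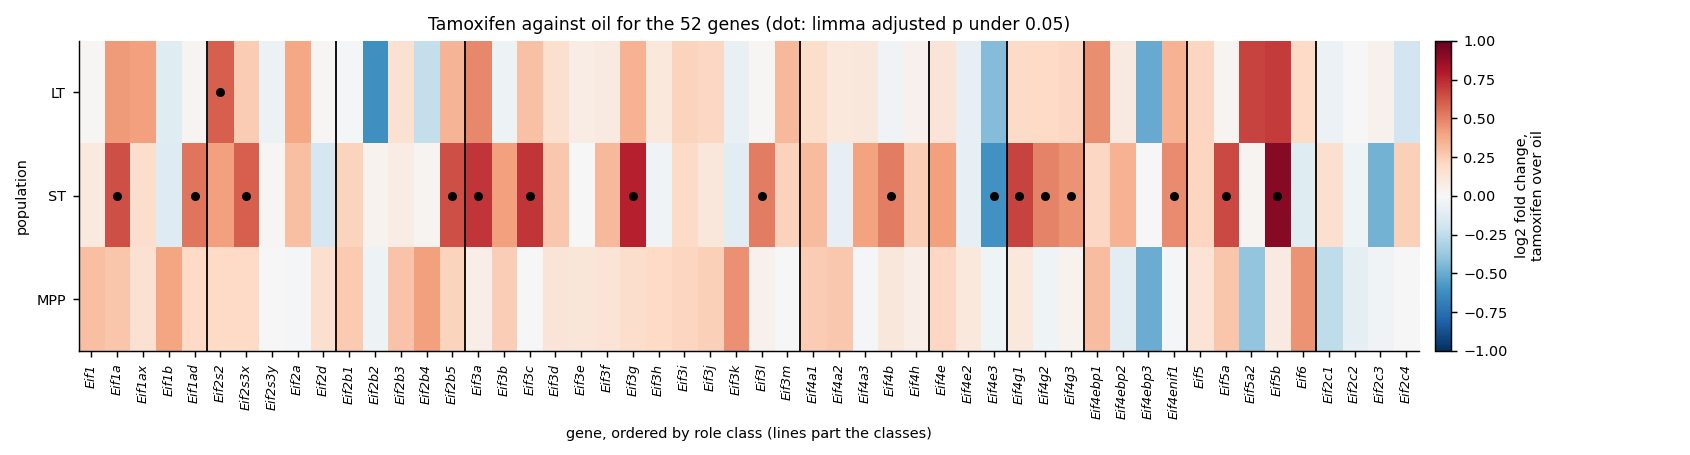
Log2 fold change of tamoxifen over oil (colour, red higher and blue lower) for the 52 genes (x axis, ordered by role class) in the 3 populations (y axis), with a dot where limma's adjusted p was under 0.05. The ST row holds 16 dots, 15 of them on red, the LT row holds 1 (Eif2s2) and the MPP row 0.

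A call in ST cells and its absence elsewhere does not show that the effects differ, so the differences of the effects were tested. Of the 52 members, 0 passed in ST minus LT (0.0555% of all genes passed), 0 in ST minus MPP (0.00694%) and 0 in LT minus MPP (0.00%), by limma. At an unadjusted p under 0.05 there were 8 (15.4%), 17 (32.7%) and 1 (1.92%), against 12.9%, 12.1% and 5.60% of all genes, so the first count was near the share of all genes. edgeR's quasi-likelihood test called 0 in each, and DESeq2 called 1, 2 and 0. The smallest p in ST minus LT belonged to Eif5a, whose effect was 0.63 ± 0.17 larger on the log2 scale in ST cells (limma adjusted p = 0.106). In ST minus MPP it belonged to Eif3c, with 0.72 ± 0.18 (limma adjusted p = 0.135). Without LT tamoxifen library A in the shared fit, 1 member passed in ST minus LT and 5 in ST minus MPP. The ST and LT cells were treated for 2 weeks and the MPPs for 1, so population and duration cannot be told apart in the differences with MPPs.

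Ratios within a library compare 2 members directly, on the log2 scale of normalised CPM plus 1. Eif4e over its minor paralog Eif4e3 ran from 0.00 to 0.37 in ST oil and from 0.80 to 1.58 under tamoxifen, and in LT cells it was -0.02 to 0.29 in oil and 0.50 to 0.84 under tamoxifen. In both populations every treated library lay above every oil library. In MPPs the ranges, -0.26 to 0.09 in oil and 0.00 to 0.39 under tamoxifen, overlapped. Eif4a1 over Eif4a2, the pair of eIF4A helicases, ran from -0.46 to -0.30 in ST oil and from -0.10 to 0.14 under tamoxifen. In LT cells it was -0.58 to -0.56 and -0.52 to -0.47, so the groups parted there too but by less, and in MPPs they overlapped. Eif4ebp1 over Eif4ebp2, a pair of 4E-binding inhibitors, was higher in ST oil, at -2.04 to -1.80, than in LT oil, at -3.53 to -2.90, or MPP oil, at -4.02 to -3.29, and the last 2 ranges overlapped. These ratios were not tested.

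**Figure D3:**
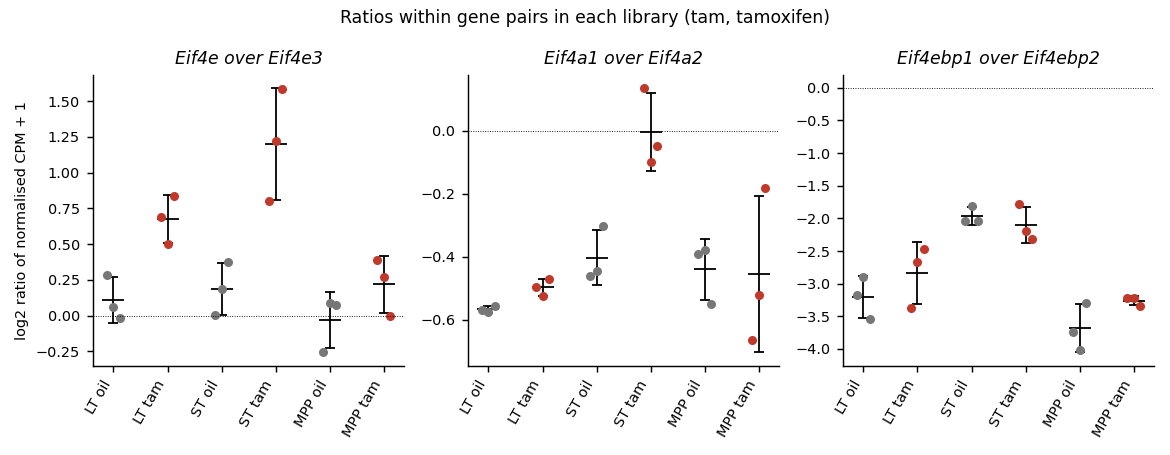
Log2 ratio of normalised CPM plus 1 within 3 gene pairs (y axes, which differ in range) in each group (x axis), with points for the 3 libraries and a bar and whiskers for the mean and SD. The ratio of Eif4e to Eif4e3 was 0.80 to 1.58 in ST tamoxifen against 0.00 to 0.37 in ST oil, and the ratio of Eif4ebp1 to Eif4ebp2 was highest in the ST groups.

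Between populations in oil, ST cells differed from both others in many members. Against LT cells, 25 of 52 passed, 13 higher in ST (Eif3e, Eif3h and Eif2s2 among them) and 12 lower, against 28.5% of all genes, or 12.5% higher and 16.0% lower. Both scaffold genes Eif4g1 and Eif4g2, 3 of 4 Argonautes and Eif4ebp2 were among the lower ones. Without ST oil library B the count was 15. The members are well-expressed genes, and shares over genes of a like level were not computed for any comparison between populations. MPPs differed from ST cells in 27 members, 13 higher and 14 lower in MPPs, against 30.7% of all genes, or 16.8% higher and 13.9% lower, and after quantile normalisation 9 were higher and 21 lower. MPPs differed from LT cells in 2 members, both lower in MPPs, against 14.8% of all genes, or 7.01% lower. This last count ran from 0 to 5 as single libraries were left out, with 0 without any 1 of the 3 MPP oil libraries or without LT oil library A or B and 5 without LT tamoxifen library A. The comparisons share the oil libraries in pairs, ST against LT in oil shares the ST oil libraries with the tamoxifen comparison in ST cells, and MPP comparisons also differ in duration. Markers of other cells differed too. In ST against LT in oil, 3 of 7 neutrophil markers (Camp, S100a8 and S100a9), Nkg7 of the T and NK cells and C1qb of the macrophages were higher in ST, and the erythroblast markers Rhag and Klf1 and Kdr of the endothelium were lower. The neutrophil sum was 27.4 to 70.4 in LT oil, 100.1 to 277.2 in ST oil and 142.5 to 512.0 in MPP oil. In MPP against ST in oil, 3 neutrophil markers, Cd4, Cd68 and Csf1r were higher in MPPs. The part of these cells in the differences of the members was not tested.

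Eif4ebp2 (ENSMUSG00000020091), an inhibitor of eIF4E, stood at 216.4, 220.6 and 235.0 in LT oil, at 94.6, 118.8 and 96.6 in ST oil and at 231.2, 254.8 and 209.2 in MPP oil. ST cells held less than every library of the other 2 populations, with log2 differences of -1.12 ± 0.12 for ST minus LT (limma adjusted p = 1.42e-07) and 1.16 ± 0.12 for MPP minus ST (limma adjusted p = 8.33e-08). Of the Argonautes, Eif2c1 (Ago1, ENSMUSG00000041530) stood at 183.7, 174.3 and 202.4 in LT oil, 88.0, 91.3 and 105.7 in ST oil and 162.6, 192.9 and 170.7 in MPP oil (-0.97 ± 0.13 for ST minus LT, limma adjusted p = 2.68e-06). Eif2c2 (Ago2, ENSMUSG00000036698), the Argonaute that can cut its targets, stood at 298.3, 287.9 and 265.0, 137.4, 148.6 and 127.7 and 221.2, 221.6 and 217.7. Its levels were ordered LT, MPP, ST without overlap, with -1.04 ± 0.11 for ST minus LT (limma adjusted p = 1.93e-07) and -0.36 ± 0.11 for MPP minus LT (limma adjusted p = 0.0283). The summed Argonaute level was 558.5 to 571.1 in LT oil, 471.6 to 488.7 in MPP oil and 294.6 to 314.1 in ST oil.

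Eif4g1 was lower in ST oil than in LT oil, where it stood at 295.8, 301.6 and 254.5 (-0.76 ± 0.12, limma adjusted p = 1.89e-05). Eif3e (ENSMUSG00000022336), an eIF3 subunit, went the other way, with 257.3, 245.4 and 228.0 in LT oil, 352.3, 454.5 and 426.1 in ST oil and 240.9, 221.3 and 278.1 in MPP oil (-0.73 ± 0.12 for MPP minus ST, limma adjusted p = 3.88e-05). Every ST oil library lay above the others. Eif2b3, a subunit of eIF2B, was lower in MPPs, at 16.9, 18.5 and 19.9 against 35.7, 27.9 and 23.8 in LT oil (-0.62 ± 0.20, limma adjusted p = 0.0347), a call lost in 6 of 17 alternatives. The X- and Y-linked genes of eIF2 gamma moved in opposite directions: Eif2s3x was lower in ST than in LT oil (105.5 ± 2.06 against 153.5 ± 10.9, -0.53 ± 0.13, limma adjusted p = 0.00353) and Eif2s3y was higher (112.9 ± 14 against 81.0 ± 8.18, 0.47 ± 0.13, limma adjusted p = 0.00928). The call of Eif2s3x held under all 18 alternatives, and that of Eif2s3y was lost without LT oil library A, without ST oil library B and after the removal of length and GC trends, where the difference was 0.23. That pair was chosen after its values were seen.

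**Figure D4:**
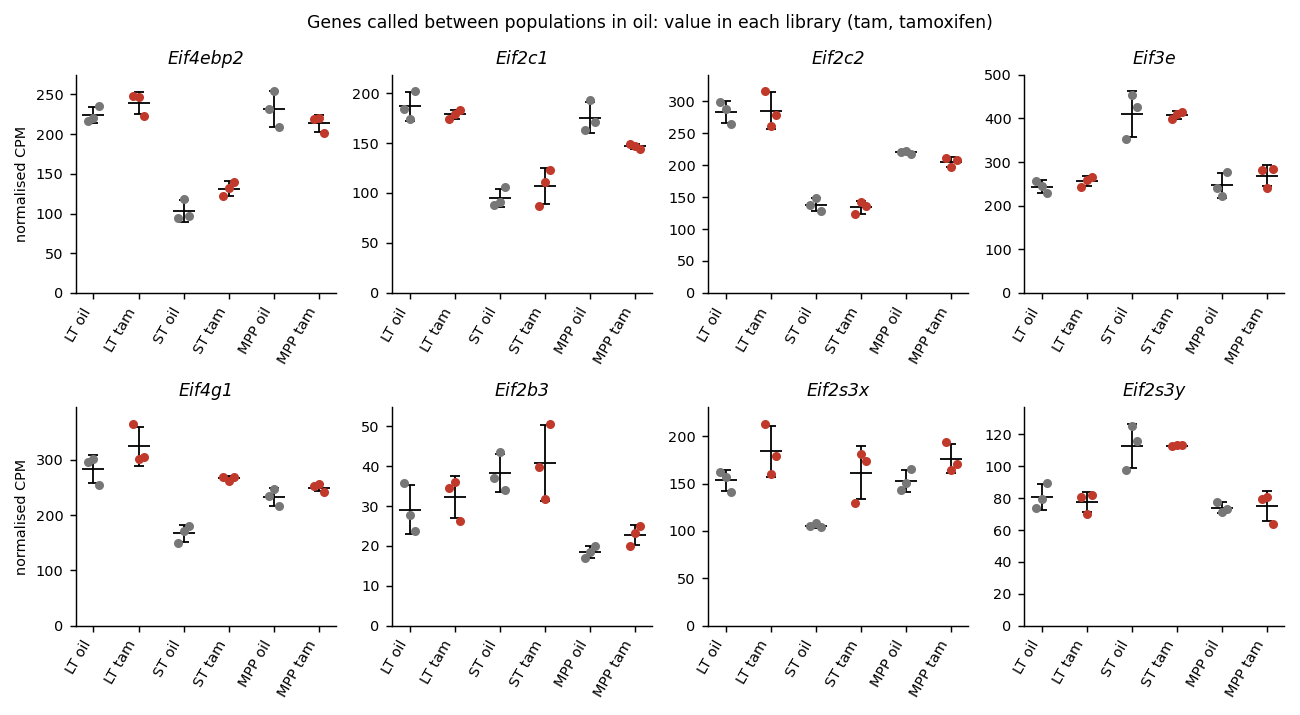
Normalised CPM of 8 genes called between populations in oil (y axis, from 0) in each of the 6 groups (x axis), with points for the 3 libraries and a bar and whiskers for the mean and SD. Eif4ebp2, Eif2c1 and Eif2c2 were lowest in the ST groups under oil and under tamoxifen, while Eif3e and Eif2s3y were highest there.

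The ST differences in oil moved with transcript length. Across the 52 members the Spearman correlation of the ST minus LT log2 difference with the length of the longest transcript was -0.46, and across 13693 genes it was -0.43. These points share their libraries. The 13 members higher in ST had a median length of 3.11 kb and the 12 lower ones of 5.38 kb. Eif2c2, at 13.80 kb, and Eif4ebp2, at 5.78 kb, are among the longer members. After length and GC trends had been removed from each library, 17 members passed, 7 higher and 10 lower, and 15 of them were among the 25. Eif4ebp2, Eif2c1, Eif2c2 and Eif4g1 passed for ST against LT under all 18 alternatives, but the removal made their differences smaller: from -1.12 to -0.73 for Eif4ebp2, from -0.97 to -0.53 for Eif2c1, from -1.04 to -0.53 for Eif2c2 and from -0.76 to -0.36 for Eif4g1. For MPP against ST, Eif2c2 did not pass after the removal (0.28), Eif2c1 came to 0.50 and Eif4ebp2 to 0.83. Under tamoxifen, ST minus LT came to -0.58 for Eif2c2, -0.59 for Eif4ebp2, -0.39 for Eif2c1 and 0.39 for Eif5a. The tamoxifen comparison in ST cells had weaker correlations with length, 0.13 over the members and 0.13 over all genes. The fall with length itself was smaller in each ST tamoxifen library than in each ST oil library, as given above, and after the removal 17 members passed, 15 of them among the 16.

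**Figure D5:**
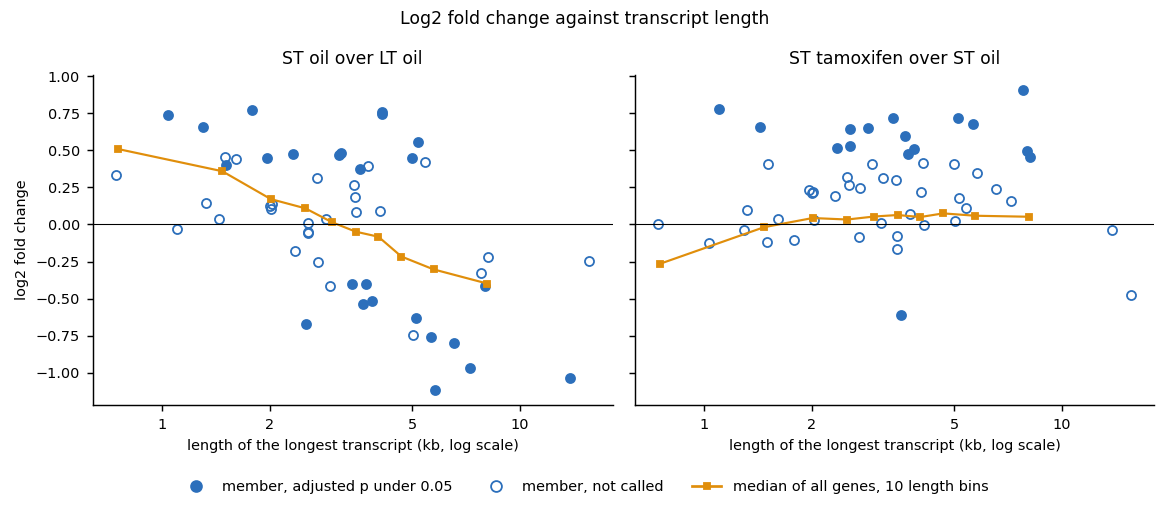
Log2 fold change (y axis) against the length of the longest transcript in kb (x axis, log scale) for the 52 genes, filled where limma's adjusted p was under 0.05, with squares for the median of all genes in 10 length bins. In ST oil over LT oil (left) the members fell with length as the medians did (Spearman correlation -0.46), and in ST tamoxifen over ST oil (right) the correlation was 0.13.

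Between ST and LT cells under tamoxifen, a comparison added after the data had been seen, 20 of 52 members passed, 14 higher and 6 lower in ST, against 23.5% of all genes, or 12.5% higher and 11.1% lower. Of the eIF4G genes, 0 passed there by limma, and 1 had an unadjusted p under 0.05. Eif4g1 was 267.0 ± 3.77 in ST tamoxifen and 324.3 ± 36.1 in LT tamoxifen (-0.27 ± 0.12, limma adjusted p = 0.0873). Eif5a was higher in ST, at 746.7 ± 43.7 against 471.2 ± 43.3 (0.67 ± 0.12, limma adjusted p = 0.000182). Eif2c2 (-1.08 ± 0.11), Eif4ebp2 (-0.86 ± 0.12) and Eif2c1 (-0.75 ± 0.13) were lower in ST under tamoxifen too, with limma adjusted p of 1.88e-07, 9.17e-06 and 0.000126. When only the groups compared entered the fit, 12 members passed. The differences moved with transcript length here too, with a Spearman correlation of -0.61 over the members and -0.37 over all genes. The 14 higher members had a median length of 2.05 kb and the 6 lower ones of 6.51 kb. After the removal of length and GC trends 16 members passed, 11 higher and 5 lower. In this comparison too, markers of other cells differed. Of the macrophage and monocyte markers 6 of 7 were higher in ST, as were 4 of 7 neutrophil markers, Nkg7 and the B cell marker Cd79b. Of the erythroblast markers 4 of 8 were lower. Of the 10 stem and progenitor markers, 2 were higher and 4 lower. The part of these cells in the members' differences was not tested.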

How the data were processed

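Per the labels' protocols, RNA came from a Picopure extraction and cDNA was amplified with an Ovation V2 kit. The file the authors deposited holds a normalised signal for 14419 genes. The submitters' processing notes name RSEM 1.17, cutadapt, Picard and limma, and the build NCBIM37. The sources used here do not give the scaling, the annotation or the strand setting. Within a library, every value divided by 1 constant gave whole reads after 0.5 was subtracted (100% of values within 0.001 read). RSEM's own estimates are fractional, so the recovered reads may be rounded. The values have the form of CPM and are called so. The table held 0 columns of other samples.

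Values were compared with limma 3.58.1 (R 4.3.3, statmod 1.5.0) on log2(value + 1), which understates changes of low genes. The fit took all 18 libraries, a mean for each group (12 residual degrees of freedom) and trended, robust moderation. P-values were adjusted by Benjamini-Hochberg over 14419 genes. The planned filter, 3 libraries at 1 or more, removed 0 genes. The script was tested on simulated data. Library sizes set the precision: 1 read was worth 0.20 to 0.33 normalised CPM.

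Alternatives were another pseudocount (0.5), filters, quantile normalisation, library weights, no trended or robust moderation, fits of only the groups compared, a replicate block, each library left out, edgeR 4.0.16 and DESeq2 1.42.0 on the recovered reads, and, added after seeing the data, removal of length and GC trends. Transcript lengths came from the longest transcript of each gene in a mouse annotation of a later build and matched 13693 genes and 52 of 52 members.

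The members and lists were chosen with earlier results of these data known. Values per library are given for up to 14 members with the smallest adjusted p in the tamoxifen comparisons and up to 4 in each comparison between populations in oil. A class without a call is represented by its member with the smallest p. Eif5b, Eif4enif1 and Eif2s2, the Eif4e family, the Eif4ebp genes and the pair Eif2s3x and Eif2s3y beyond that were singled out after their values were seen.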

Additional observations from a re-analysis of the deposited data

How the results depend on the processing

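For 50 single-gene calls (33 of members, and 17 of pathway and marker genes under tamoxifen), 748 recalculated values kept the direction and the call, 140 kept the direction but lost the call, and 0 reversed. The 748 include the alternative without a filter, which repeated the main fit. Between populations, only up to 4 members with the smallest adjusted p in each comparison entered, with Eif2s3x and Eif2s3y added for ST against LT in oil. The weaker calls there are not in this tally. Counts of members called are given next, and where they moved the cause was not tested. For tamoxifen in ST cells (16 called), the count was 10 without trended and robust moderation. It ranged from 9 to 22 as single libraries were left out, 22 being without LT tamoxifen library A. For tamoxifen in LT cells (1 called), it was 0 with a pseudocount of 0.5, with quantile normalisation, without trended and robust moderation, with only the groups compared, with the replicate block and after the removal of length and GC trends. It was 3 with library weights and 4 with DESeq2, and it ranged from 0 to 3 as libraries were left out, 3 being without LT tamoxifen library B. For the difference of effects in ST minus LT (0 called), DESeq2 gave 1 and the range was 0 to 1. For ST minus MPP (0 called), library weights gave 5, only the groups compared 1 and DESeq2 2, and the range was 0 to 5, with 1 without ST oil library C. For ST against LT in oil (25 called) the range was 15 to 29. For MPP against LT in oil (2 called), quantile normalisation gave 4, library weights 9, no trended and robust moderation 1 and only the groups compared 7, and the range was 0 to 5. For ST against LT under tamoxifen (20 called), only the groups compared gave 12. Tamoxifen in MPPs and the difference LT minus MPP stayed at 0 under the alternatives run.

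The replicate numbers and letters of the titles do not state a shared animal, batch or day. Deviations of same-numbered libraries correlated at -0.03 to 0.13 in the tamoxifen comparisons, and not every library correlated best with its own number. Between LT oil and ST oil, same-lettered libraries correlated at 0.05 to 0.10 and every library correlated best with its own letter, a hint from the data and not from the design. With the replicate block the count in ST cells under tamoxifen was 16, in LT cells 0, in MPPs 0, in ST against LT in oil 24 and in ST against LT under tamoxifen 19. No paired analysis was possible for MPP against LT and MPP against ST in oil because these groups share no number. Leaving out a library left a group of 2 in a fit that pools the spread of all groups. Members at a few normalised CPM, such as Eif4ebp3 with 1 read in 1 library, are limited by depth.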
